A study of Mus musculus with 5 samples.

Results

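At the loci of 4 cardiac transcription factor genes, Gata4, Gata6, Nkx2-5 and Hand2, chromatin immunoprecipitation followed by sequencing (ChIP-seq) of adult mouse heart gave 53 of the 21703 regions in 3 lists of factor-bound DNA. A region was counted when it overlapped a fixed mm9 window by at least 1 bp, each window being the gene with about 100 kb on each side. The windows were chr14, 63.71 to 64.00 Mb for Gata4, chr18, 10.95 to 11.19 Mb for Gata6, chr17, 26.87 to 27.08 Mb for Nkx2-5 and chr8, 59.69 to 59.91 Mb for Hand2. They span 290 kb, 240 kb, 210 kb and 220 kb, or 960 kb in all. The windows follow gene positions, but the loci were chosen with earlier results of these data known.

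The series holds 5 libraries of whole adult heart on the FVB/N background, 1 for each target and 1 control. Tbx3 was precipitated from hearts of the genotype Myh6-MCM;CAG-CAT-TBX3, and Nkx2-5 and Gata4 from wild-type hearts. Myh6-MCM is an inducible Cre made in cardiomyocytes, so the Tbx3 list describes hearts that carry the TBX3 transgene and not Tbx3 in a wild-type heart. The control library (the Tbx3 antibody in Myh6-MCM hearts) and the p300 library were not analysed here. Each list comes from 1 library, the number of animals behind it is not given in the sources used here, and the files give positions without height, score or depth. The values below therefore describe these lists, with no replicate check and no test. Genotype and factor cannot be told apart for Tbx3, and neither can depth, antibody and calling threshold for the different lengths of the lists.

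Gata4 and Gata6 are related zinc-finger proteins that bind GATA sequences, Nkx2-5 is a homeodomain protein of cardiomyocytes, and Hand2 is a basic helix-loop-helix protein needed for the right ventricle. Together with T-box proteins they form the core set of heart transcription factors, and they are known to act in part through each other's genes. Tbx3 is a T-box repressor found in the cardiac conduction system, where it holds back genes of the working myocardium. The 4 loci therefore show where these proteins lie near genes of their own kind, and for Nkx2-5 and Gata4 at their own gene. Occupancy alone does not show regulation.

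The sequence before the gene start is shown for the genes with an entry, because the windows were drawn around these genes. In the RefSeq promoter table (GRCm38.p6) 2 of the 4 genes, Nkx2-5 and Hand2, matched by symbol. The 250 bases before the start are printed 5′ to 3′ in the gene's direction, at chr17:26841566-26841815 (minus strand) and chr8:57320733-57320982 (plus strand). Capitals mark matches on either strand to GGTGTG (the T-box core), AAGTG (the Nkx2-5 core) or AGATAA (the GATA core). These motifs do not overlap one another here.
Nkx2-5: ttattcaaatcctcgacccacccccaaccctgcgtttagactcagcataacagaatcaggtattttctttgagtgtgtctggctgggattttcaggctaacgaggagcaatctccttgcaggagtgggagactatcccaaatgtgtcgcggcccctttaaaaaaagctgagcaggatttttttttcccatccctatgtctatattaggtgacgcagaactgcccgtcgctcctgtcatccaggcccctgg
Hand2: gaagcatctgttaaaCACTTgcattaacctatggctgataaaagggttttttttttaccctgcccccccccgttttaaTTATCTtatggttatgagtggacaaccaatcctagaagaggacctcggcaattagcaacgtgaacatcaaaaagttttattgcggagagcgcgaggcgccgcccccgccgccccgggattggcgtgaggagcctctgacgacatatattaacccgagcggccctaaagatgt
The Hand2 stretch held CACTT, the reverse complement of the Nkx2-5 core, 235 to 231 bases before the start. It also held TTATCT, the reverse complement of the GATA core, 172 to 167 bases before the start. The Nkx2-5 stretch held none of the 3 motifs. Of all 32851 stretches of this length in the table, 40.7% held AAGTG, 9.99% AGATAA and 16.3% GGTGTG on either strand. A match to such short letters is a description and not a binding site. The region lists are in mm9, another build, so the regions cannot be placed on these sequences.

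All 3 factors had regions at all 4 genes in the lists as deposited, and Tbx3 had the most overall. The Tbx3 list gave 30 regions in the 4 windows, the Nkx2-5 list 13 and the Gata4 list 10. These come from whole lists of 13242, 6705 and 1756 regions, so the numbers are best read against the length of each list. Per 100 kb the 4 windows held 3.12 Tbx3 regions against an autosomal mean of 0.551 (5.67-fold), 1.35 Nkx2-5 regions against 0.277 (4.89-fold) and 1.04 Gata4 regions against 0.0728 (14.3-fold). Relative to the length of its own list, Gata4 thus stood highest above its mean, although it had the fewest regions. The autosomal mean includes long stretches without genes, whereas these windows were drawn around genes, so the ratios are a description and not an enrichment test. The order of the factors changed with list length. When only the 1756 widest regions of every list were kept, 4 Tbx3, 5 Nkx2-5 and 10 Gata4 regions were in the windows. Hand2 then had 0 of Tbx3 and 0 of Nkx2-5. This cut shortens the Tbx3 list most and leaves the Gata4 list whole, so a fall for Tbx3 is built in. The part of list length in the Tbx3 count was not tested.

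**Figure D1:**
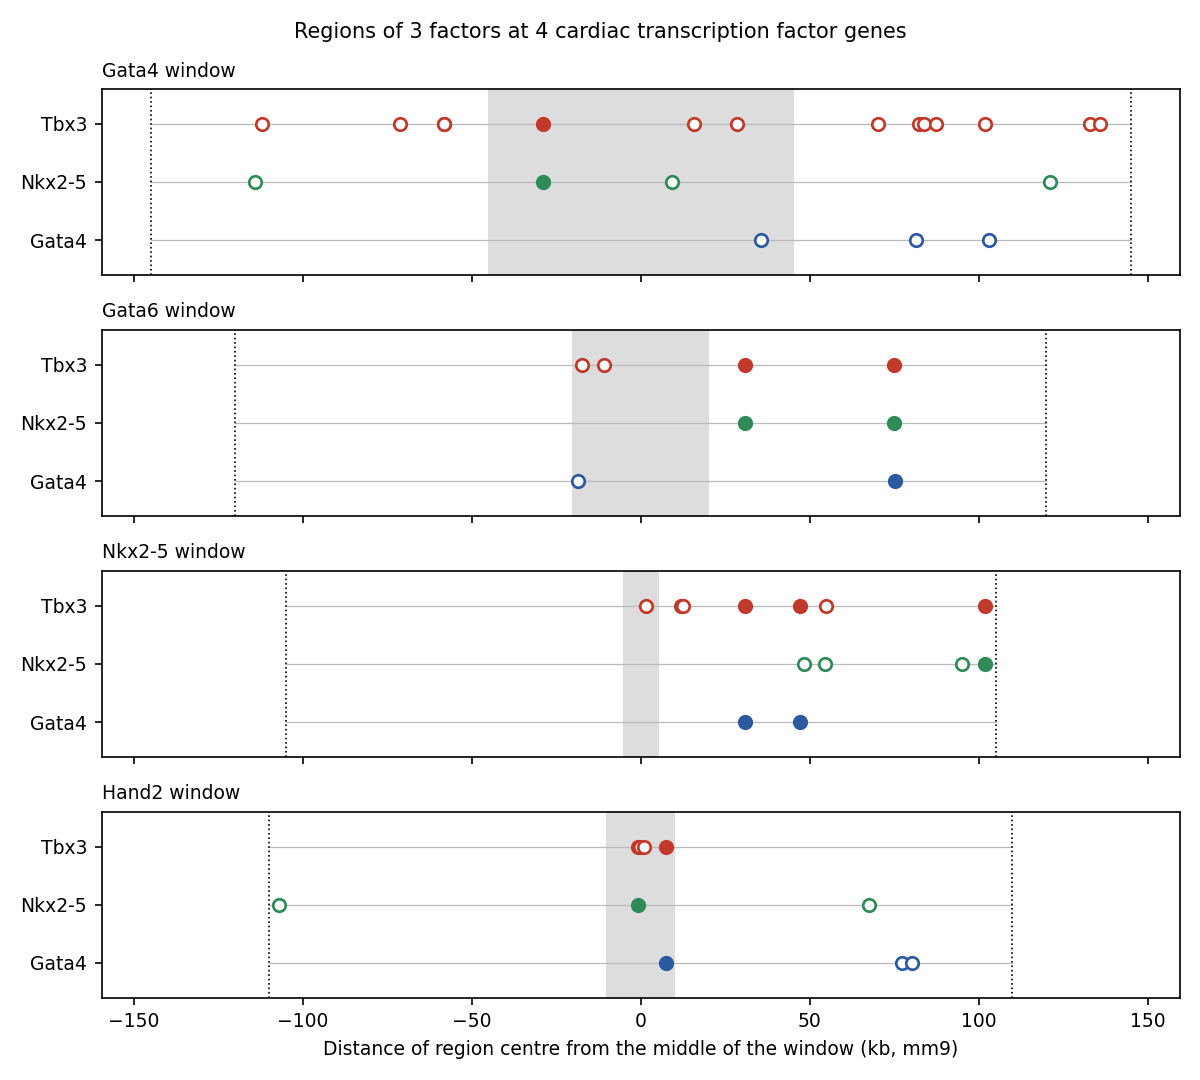
Each panel is 1 gene window and each circle 1 region, placed by the distance of its centre from the middle of the window in kb (mm9); filled circles overlap a region of another list by at least 1 bp, grey marks the gene stretch and dotted lines the window ends. Of the 53 regions, 31 lie above the gene stretch, 16 in it and 6 below it.

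The Gata4 locus carried the most regions, 21, followed by Nkx2-5 with 14, Hand2 with 10 and Gata6 with 8. Corrected for window length this order was the same, at 7.24, 6.67, 4.55 and 3.33 regions per 100 kb. The difference between Gata4 and Nkx2-5 is small and rests on Tbx3: the Gata4 window held 14 Tbx3 regions and the Nkx2-5 window 8. With lists of equal size, as above, both windows held 6 regions, and with the wider 50% of each list both held 10. The Nkx2-5 window is the shorter (210 kb against 290 kb), so per 100 kb it then stood above the Gata4 window. The Tbx3 list alone had 4 regions each at Gata6 and Hand2.

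The order of the genes differed from factor to factor. Tbx3 was densest at Gata4 (4.83 regions per 100 kb, 8.75-fold above its autosomal mean) and sparsest at Gata6 (1.67, 3.02-fold). Nkx2-5 was densest at its own gene (1.90 per 100 kb from 4 regions, 6.88-fold) and sparsest at Gata6 (0.833 from 2 regions, 3.01-fold). Gata4 was densest at Hand2 (1.36 per 100 kb from 3 regions, 18.7-fold) and sparsest at Gata6 (0.833 from 2 regions, 11.4-fold). Gata6 was thus the lowest of the 4 genes per 100 kb in each list. By count it was level with Hand2 in the Tbx3 list (4 regions each). In the Gata4 list it was level with the Nkx2-5 gene (2 regions each). There its place rests on its longer window (240 kb, against 220 kb for Hand2 and 210 kb for Nkx2-5). In the Nkx2-5 and Gata4 lists neighbours in the order were apart by at most 1 region. The folds depend on the mean they are set against. Against the mean of the same chromosome, Gata4 was highest at its own gene (28.3-fold, against 15.7-fold at Hand2), Nkx2-5 was highest at Gata4 (6.59-fold, against 5.45-fold at its own gene) and Tbx3 was lowest at Hand2 (2.86-fold, against 3.30-fold at Gata6).

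**Figure D2:**
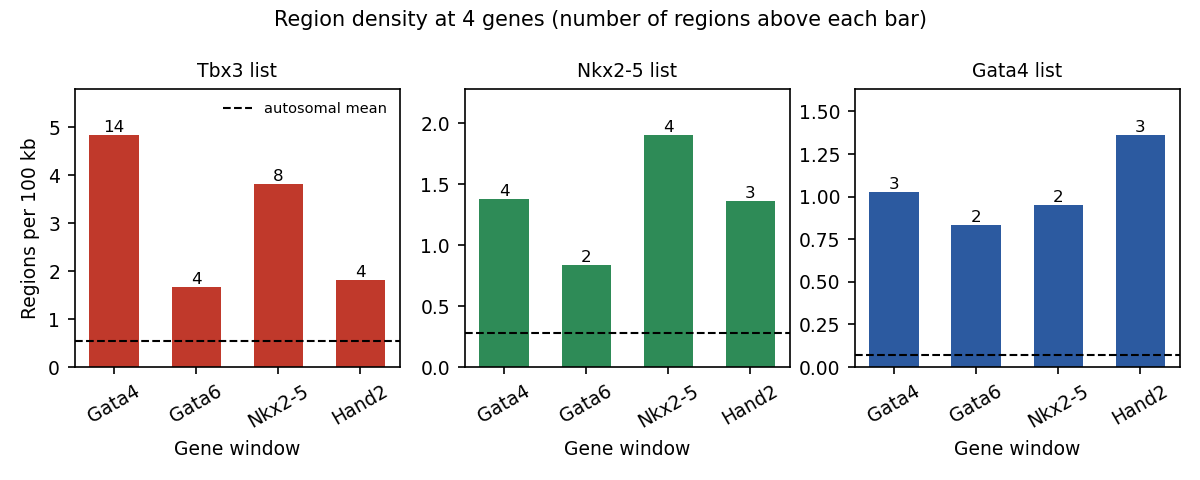
Bars give regions per 100 kb (vertical axis) in each gene window for each list, with the number of regions above the bar and the autosomal mean of the list as a dashed line. Every bar stands above its dashed line, the Gata4 list from 11.4-fold to 18.7-fold and the Tbx3 list from 3.02-fold to 8.75-fold.

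Equal tiles laid along the autosomes show how common such counts are in each list. Of 8480 tiles as long as the Gata4 window, 0.920% held 14 or more Tbx3 regions, 5.94% held 4 or more Nkx2-5 regions and 1.14% held 3 or more Gata4 regions. For the Nkx2-5 window, 2.68% of 11716 tiles held as many Tbx3 regions, 3.69% as many Nkx2-5 regions and 2.40% as many Gata4 regions. For the Hand2 window the shares of 11182 tiles were 11.7%, 7.07% and 0.769%, and for the Gata6 window 12.6%, 15.0% and 2.92% of 10249 tiles. Few regions at Gata6 were therefore still more than most tiles hold, since the median tile held no region in any list. A tile with regions of all 3 factors, which all 4 windows were, made up between 7.08% and 10.2% of tiles, depending on the length.

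Gata4, which encodes the zinc-finger factor of the same name, had Tbx3 regions spread along the whole window. The stretch that remains after 100 kb is taken off each side, here called the gene stretch and known to about 10 kb, runs from 63.81 to 63.90 Mb. Of the 14 Tbx3 regions, 3 lay in it, 4 below it and 7 above it, where below and above refer to position on the chromosome. The Tbx3 regions in the gene stretch were chr14:63825912-63826027, chr14:63870796-63870898 and chr14:63883283-63883449. Nkx2-5 had 4 regions, at chr14:63741288-63741427, 63825860-63826105, 63864264-63864386 and 63975969-63976226, so that 2 were in the gene stretch and 1 on each side. Gata4 protein had 3 regions, at chr14:63890476-63890707, 63936455-63936567 and 63957557-63957766, the first in the gene stretch and the others above it. By overlap, 1 position was shared between lists, made up of 1 of the 14 Tbx3 and 1 of the 4 Nkx2-5 regions. In the whole lists 19.6% of Tbx3, 41.4% of Nkx2-5 and 43.1% of Gata4 regions met another list. Whether sharing was lower at this gene was not tested. The widest regions at this gene were the Tbx3 region chr14:63987959-63988214 (256 bp), the Nkx2-5 region at 63975969 (258 bp) and the Gata4 region at 63890476 (232 bp), and none of these overlapped another list.

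Nkx2-5, which encodes the cardiomyocyte homeodomain factor, had regions on 1 side only. The gene stretch is 26.97 to 26.98 Mb. Of the 14 regions, 1 lay in it, 13 above it and none below it, and the first 106 kb of the window held no region of any list. This was not particular to Nkx2-5. Gata6 had no region below its gene stretch either, and the longest empty stretch at Hand2 was also 106 kb. How common such empty stretches are was not counted. The region in the gene stretch was Tbx3, at chr17:26976361-26976586 (226 bp, wider than 84.5% of the Tbx3 list). A group of 3 Tbx3 regions followed within 1.04 kb, at chr17:26986631-26986885, 26987187-26987339 and 26987522-26987671. The nearest region of another list, of Gata4, was 18088 bp from this group. Further up, Gata4 joined Tbx3 at 2 positions (Gata4 regions chr17:27005760-27006004 and 27021854-27022114), and a group of 5 regions between 27021854 and 27029869 (8.02 kb) held 2 Tbx3, 2 Nkx2-5 and 1 Gata4 region. Its Nkx2-5 regions were chr17:27023163-27023294 and 27029417-27029534. The last group, between 27069878 and 27076787, held 2 Nkx2-5 regions (chr17:27069878-27070060 and 27076403-27076709) and 1 Tbx3 region (chr17:27076557-27076787).

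Hand2, which encodes the helix-loop-helix factor of the right ventricle, had its Tbx3 regions in the gene stretch only. The gene stretch is 59.79 to 59.81 Mb, and all 4 Tbx3 regions lay in it, at chr8:59799140-59799316, 59799688-59799916, 59800982-59801152 and 59807429-59807590. With 1 Nkx2-5 region (chr8:59799105-59799215) and 1 Gata4 region (chr8:59807314-59807555) they formed a group of 6 regions in 8.49 kb, the group with the most regions at any of the 4 genes. Outside it no Tbx3 region was found in the window. A second group, of 3 regions starting 57.6 to 70.1 kb above the gene stretch, held Nkx2-5 at chr8:59867584-59867739 and Gata4 at 59877088-59877240 and 59880087-59880230. The remaining Nkx2-5 region, chr8:59692894-59693004, lay 97.0 kb below the gene stretch.

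Gata6, which encodes the close relative of Gata4, had 8 regions at 5 positions. The gene stretch is 11.05 to 11.09 Mb, and the first 101 kb of the window held no region. Near the lower end of the gene stretch lay a Gata4 region (chr18:11051338-11051466) and, 996 bp further on, a Tbx3 region (chr18:11052463-11052698), followed by a second Tbx3 region (chr18:11059033-11059159). The other 5 regions made up 2 shared positions above the gene stretch. Both Nkx2-5 regions at this gene (chr18:11100982-11101111 and 11144970-11145228) were part of these positions, together with Tbx3 at chr18:11100936-11101066 and 11145035-11145210 and Gata4 at chr18:11145096-11145280.

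The factors differed at their own genes. At the Gata4 gene, the Gata4 list had 1 region in the gene stretch, and at the Nkx2-5 gene the Nkx2-5 list had none. The Nkx2-5 region nearest to the gene stretch of Nkx2-5 was chr17:27023163-27023294, 43.2 kb above it, whereas Tbx3 had a region within it and the nearest Gata4 region was 25.8 kb away. In the gene stretch of Gata4, by comparison, Nkx2-5 had 2 regions and Tbx3 had 3. Nkx2-5 also had a region in the gene stretch of Hand2, and its nearest region to that of Gata6 was 11 kb away. Gata4 had 1 region each in the gene stretches of Gata4, Gata6 and Hand2. None of the 4 Nkx2-5 regions at Nkx2-5 overlapped a Gata4 region, and none of the 3 Gata4 regions at Gata4 overlapped an Nkx2-5 region. Over the whole lists these shares were 8.90% of Nkx2-5 regions and 33.4% of Gata4 regions. With so few regions, finding none is no result about these genes. The gene stretches differ in length (90 kb for Gata4, 40 kb for Gata6, 20 kb for Hand2, 10 kb for Nkx2-5), so a short one has less room for a region.

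Regions of different lists coincided at 8 of 44 positions, and Tbx3 took part in each of them in the full lists. A position here is a single region or a set of overlapping ones. Tbx3 met Nkx2-5 alone at 4 positions, Gata4 alone at 3 and both at 1, and Nkx2-5 with Gata4 but without Tbx3 occurred at none. The last kind made up 21.8% of the whole Gata4 list, against 0 of the 10 Gata4 regions here (exact 95% interval 0 to 30.8%), so its absence is within counting error. With the 1756 widest regions of every list, 2 shared positions were left, 1 of Tbx3 with Gata4 and 1 of Nkx2-5 with Gata4. The latter is the position at Gata6 that holds all 3 factors in the full lists. Its Tbx3 region (176 bp) was removed by this cut, so it is not a position free of Tbx3. In the full lists the other 36 positions held 1 factor, which was Tbx3 at 22, Nkx2-5 at 8 and Gata4 at 6. The Nkx2-5 locus had 3 shared positions of 11, Gata6 2 of 5, Hand2 2 of 8 and Gata4 1 of 20. By this rule of 1 bp the locus with the most regions had the fewest shared positions, but with gaps of up to 1 kb Gata4 had 3 and Hand2 2, and with centres within 500 bp both had 2.

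The position with all 3 factors was at Gata6, chr18:11144970-11145280, 55 kb above the gene stretch. The Tbx3 region there (176 bp) lay wholly within the Nkx2-5 region (259 bp), and their centres were 23.5 bp apart. The Gata4 region (185 bp) shared 133 bp with Nkx2-5 and 115 bp with Tbx3, with centres 89 bp and 65.5 bp away. Of equal autosomal tiles that held all 3 factors, 20.4% had a Gata4 region overlapping both other lists, so 1 such locus among 4 is near the background. By regions it was 1 of 30 for Tbx3 (whole list 1.67%), 1 of 13 for Nkx2-5 (3.30%) and 1 of 10 for Gata4 (11.7%).

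The Tbx3 and Nkx2-5 positions lay at 1 place in each window besides. At Gata4 it was in the gene stretch (chr14:63825860-63826105), where the 116 bp Tbx3 region lay wholly within the Nkx2-5 region and the centres were 13 bp apart. At Hand2 it was in the gene stretch as well (chr8:59799105-59799316), with 76 bp shared and centres 68 bp apart. The other Gata6 position (chr18:11100936-11101111) was 10.9 kb above the gene stretch and shared 85 bp. At Nkx2-5 the position was 96.4 kb above the gene stretch (chr17:27076403-27076787), with 153 bp shared and the widest Nkx2-5 region of the 4 loci (307 bp, wider than 96.4% of its list).

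The Tbx3 and Gata4 positions were at Nkx2-5 and Hand2. At Nkx2-5 the nearer lay 25.7 kb above the gene stretch (chr17:27005733-27006090), where the widest Tbx3 region of the 4 loci (358 bp, wider than 97.6% of its list) contained the whole Gata4 region of 245 bp. The further one lay 41.9 kb above the gene stretch (chr17:27021854-27022114), where the Gata4 region of 261 bp, the widest of that factor here, contained the Tbx3 region of 138 bp. Their centres were 29.5 bp and 15.5 bp apart. Both Gata4 regions at the Nkx2-5 gene were therefore shared with Tbx3, and the nearest Nkx2-5 region to the further one was 1048 bp away. At Hand2 the position was in the gene stretch (chr8:59807314-59807590), with 127 bp shared and centres 75 bp apart.

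**Figure D3:**
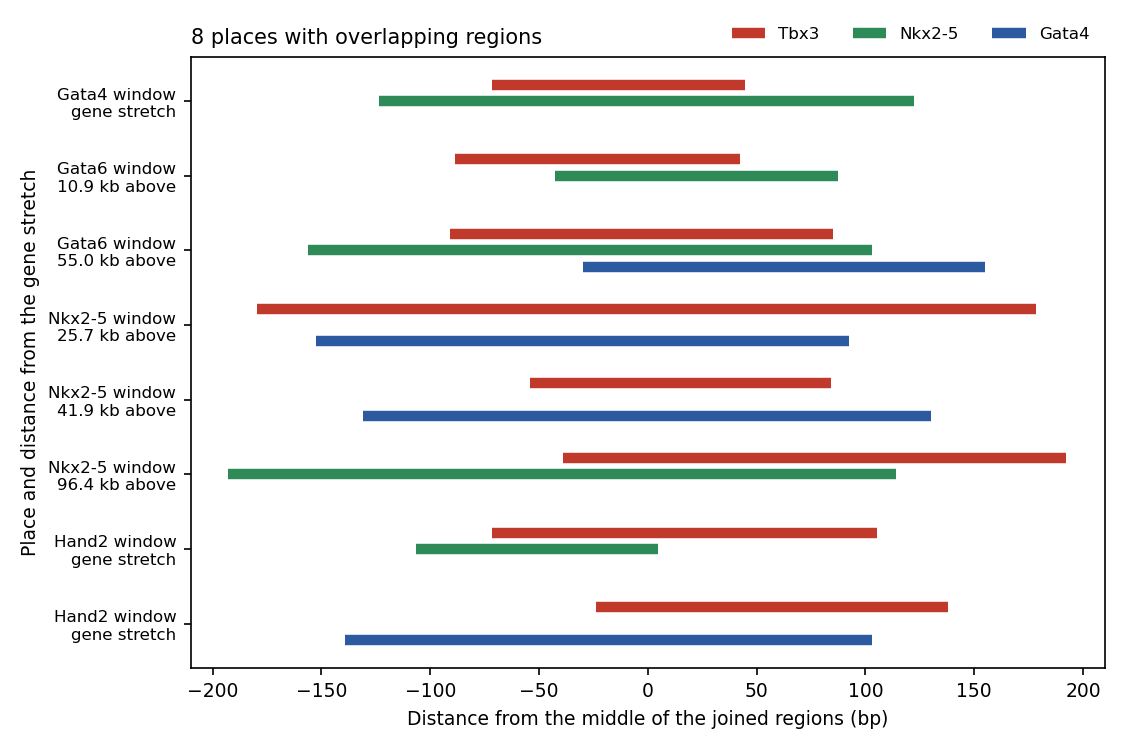
Bars show the regions at the 8 shared positions, drawn to scale in bp from the middle of each position, with the window and the distance above the gene stretch at the left. Every position has a Tbx3 bar, and the Gata6 position 55 kb above the gene stretch has all 3.

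Tbx3 and Nkx2-5 regions coincided about as often as in the whole lists. The share of Tbx3 regions that met Gata4 was higher, but rests on 4 regions. Of the 30 Tbx3 regions, 5 overlapped Nkx2-5 (16.7%, exact Clopper-Pearson 95% interval 5.64 to 34.7%), against 18.3% of the whole list. Of the 13 Nkx2-5 regions, 5 overlapped Tbx3 (38.5%, 13.9 to 68.4%), against 35.8%, and 1 overlapped Gata4 (7.69%, 0.195 to 36.0%), against 8.90%. These shares are near the background and are no result about the 4 loci. Of the 30 Tbx3 regions, 4 overlapped Gata4 (13.3%, 3.76 to 30.7%), against 2.92% of the whole list, which lies under that interval. The interval treats neighbouring regions as independent, and 2 of the 4 lay at Nkx2-5. Seen from the Gata4 list, the same overlaps were within counting error, as given below. The Gata4 list was also the one furthest above its mean density in these windows (14.3-fold), and its part in this share was not tested.

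The Gata4 regions met Tbx3 more often than Nkx2-5, the opposite order to the whole Gata4 list, but within wide error. Of the 10, 4 overlapped Tbx3 (40.0%, 12.2 to 73.8%) against 21.3% of the whole Gata4 list, and 1 overlapped Nkx2-5 (10%, 0.253 to 44.5%) against 33.4%. Both whole-list values lie inside these intervals, so at 10 regions the difference is not larger than counting error. The region that met Nkx2-5 was the one at Gata6 that also met Tbx3. The share of regions that met any other list was 26.7% for Tbx3 (8 of 30, whole list 19.6%), 38.5% for Nkx2-5 (5 of 13, 41.4%) and 40.0% for Gata4 (4 of 10, 43.1%). The intervals cover counting error only and treat regions as independent, which neighbours at 1 gene are not.

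**Figure D4:**
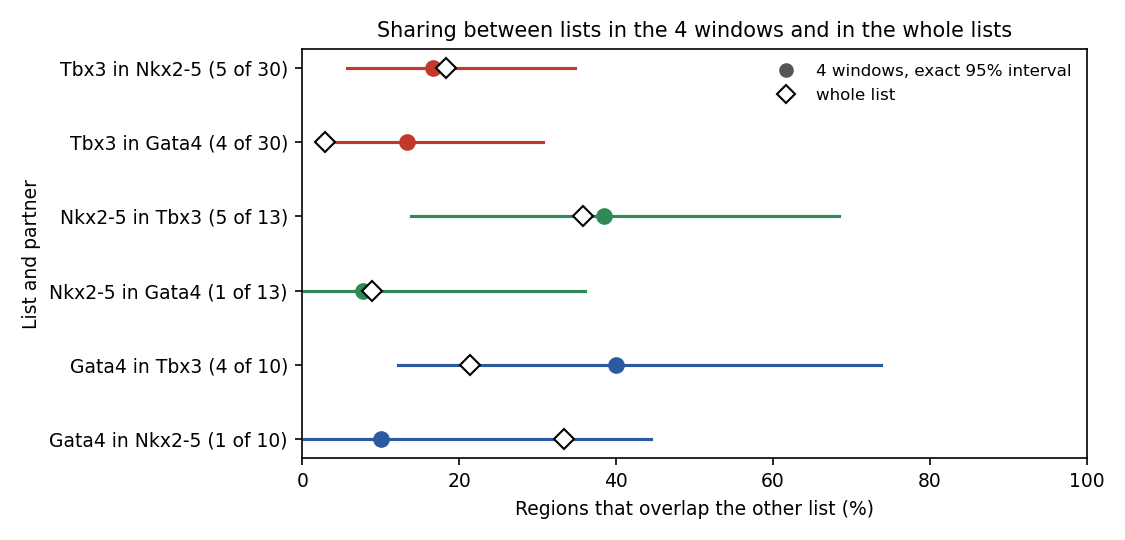
Circles give the percent of regions in the 4 windows that overlap the partner list by at least 1 bp, with exact 95% intervals as lines, and diamonds the percent of the whole list. The diamond lies outside the line for Tbx3 in Gata4 alone, at 2.92% against 13.3%. The lines treat regions as independent, which neighbours at 1 gene are not.

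A further 5 pairs of regions of different lists lay within 1 kb without overlap, and each had Tbx3 as a partner. Tbx3 supplied 30 of the 53 regions, and the share of such pairs over the whole lists was not counted. A Gata4 and an Nkx2-5 region at Nkx2-5, 1048 bp apart, fell just outside this limit. The closest was at the Gata4 locus, where Tbx3 (chr14:63957306-63957473) and Gata4 (chr14:63957557-63957766) were 83 bp apart. Another Tbx3 and Gata4 pair there was 685 bp apart, and the pair at the lower end of Gata6 996 bp. Tbx3 and Nkx2-5 were 221 bp apart at Nkx2-5 (chr17:27029756-27029869 and 27029417-27029534) and 472 bp apart at Hand2. If such pairs are counted as shared, 7 of the 10 Gata4 regions were shared with Tbx3 (exact 95% interval 34.8 to 93.3%, whole list 30.1%) and still 1 with Nkx2-5 (0.253 to 44.5%, whole list 39.0%). The whole-list share for Tbx3 lies under its interval, but the interval treats neighbouring regions as independent. By overlap the share was within counting error. The Tbx3 list was also 5.67-fold above its mean density in these windows, and its part in this share was not tested.

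Regions of 1 factor also lay near each other. A Tbx3 neighbour within 10 kb was found for 18 of the 30 Tbx3 regions (60%, whole list 49.4%), for all 4 at Hand2, 5 of 8 at Nkx2-5, 7 of 14 at Gata4 and 2 of 4 at Gata6. The closest Tbx3 neighbours were chr14:63796704-63796806 and chr14:63796864-63797026 at Gata4, 57 bp apart. For Nkx2-5 it was 5 of 13 (38.5%, whole list 32.2%), and all 4 at its own gene were among them. For Gata4 it was 2 of 10 (20%, whole list 17.0%), the 2 regions above Hand2. The whole-list shares lay inside the exact 95% intervals of these 3 values (40.6 to 77.3%, 13.9 to 68.4% and 2.52 to 55.6%).

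Width was the only other value that the files give per region. The median width was 158 bp for the Tbx3 regions (103 to 358 bp, whole list 147 bp), 140 bp for Nkx2-5 (111 to 307 bp, whole list 142 bp) and 198 bp for Gata4 (113 to 261 bp, whole list 149 bp). The 4 shared Gata4 regions measured 185, 242, 245 and 261 bp, all above their list's median, and the other 6 ranged from 113 to 232 bp, with 3 of them above it. For Nkx2-5 the shared regions had a median of 246 bp and the others 136 bp, and for Tbx3 169 bp and 152 bp, and in all 3 lists the ranges of shared and other regions overlapped. At Hand2 the shared Nkx2-5 region was among the narrow ones (111 bp, wider than 15.9% of its list). A wider region has more room to overlap another, and the part of width in the sharing was not tested.

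**Figure D5:**
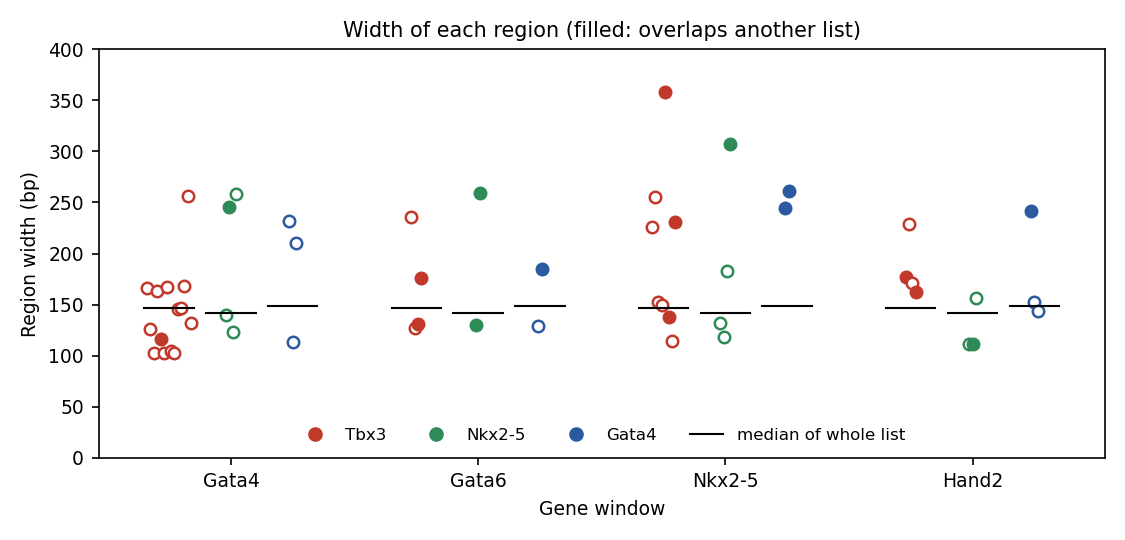
Each circle is 1 region, with its width in bp on the vertical axis, grouped by gene window and coloured by factor; filled circles overlap another list and black lines mark the median of the whole list. The 4 filled Gata4 circles all lie above the line at 149 bp, and the widest region is Tbx3 at the Nkx2-5 gene with 358 bp.

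Other genes lie next to the 4. In the RefSeq gene table (GRCm38, used for names and order only) the protein-coding neighbours of Gata4 are Neil2 and Blk, those of Gata6 Mib1 and Rbbp8, those of Nkx2-5 Bnip1 and Kifc5b, and those of Hand2 Fbxo8 and Scrg1. No region was assigned to any of these genes, since their positions in mm9 were not used here.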

How the data were processed

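The authors deposited 1 list of regions per factor (Tbx3, Nkx2-5 and Gata4), each with a chromosome, a start and an end. Per the submitters' processing notes, positions refer to mm9. Not given in the sources used here are the aligner, the peak caller with its threshold, the use of the control and the depth. Samples were grouped by the source names in the labels.

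Starts were read as counted from 0 and are printed counted from 1. Regions were taken as members, joined into positions and compared with the whole lists by an overlap of at least 1 bp (Python 3.11.15). Exact Clopper-Pearson 95% intervals were computed with scipy 1.17.1. Densities used the span of all 3 lists on the autosomes. Tiles started at position 0, and partly filled last tiles were left out. Counting was tested on simulated data. Every position with 2 or 3 factors, the widest region of each factor at each gene, that nearest the middle of the window, and all regions where a factor had 5 or fewer were to be named. The windows, members and lists were chosen with earlier results of these data known. No sequence of a region was used, as no mm9 genome was used here. Alternatives changed the window, the overlap rule, the lists, the tiles and the motifs.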

Additional observations from a re-analysis of the deposited data

How the results depend on the processing

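Counts fell where windows or lists were shortened, since fewer regions then enter, and several orders between factors and genes turned. With 50 kb taken off each side, 5 regions remained at Gata6 and 6 at Hand2, 6 of the Nkx2-5 list and 6 of the Gata4 list. Sharing of Tbx3 and Nkx2-5 was then 3 regions of each list, no position had 3 factors, and 0 regions were shared by Nkx2-5 and Gata4. With 100 kb taken off, 6 regions remained at Gata4, 3 at Gata6, 1 at Nkx2-5 and 6 at Hand2. They were made up of 10 Tbx3, 3 Nkx2-5 and 3 Gata4 regions. By count alone Nkx2-5 went from the place after Gata4 to the last. The stretches left differ in length (90 kb for Gata4, 40 kb for Gata6, 10 kb for Nkx2-5, 20 kb for Hand2). These counts are therefore not an order per 100 kb. The wider 50% of each list gave 10 regions at Gata4, 10 at Nkx2-5, 7 at Hand2 and 4 at Gata6, so that Gata4 and Nkx2-5 were level by count. These were 18 of Tbx3, 6 of Nkx2-5 and 7 of Gata4, with 4 shared positions and 2 regions shared by Tbx3 and Nkx2-5. The 1756 widest regions of each list gave 6 at Gata4, 4 at Gata6, 6 at Nkx2-5 and 3 at Hand2, with 4 of Tbx3, 5 of Nkx2-5 and 10 of Gata4, so that Tbx3 had the fewest, 2 shared positions, 0 with 3 factors, 0 regions shared by Tbx3 and Nkx2-5, 1 by Tbx3 and Gata4 and 1 by Nkx2-5 and Gata4. Gaps of at most 1 kb gave 7 regions shared by Tbx3 and Gata4. An overlap of 50% of the shorter region changed no count of shared positions by more than 1.5 times, and neither did taking regions by their centre change a count of regions. Against the same chromosome's mean the order of the genes by fold turned in every list, with Gata4 at its own gene moving from 14.2-fold to 28.3-fold. Each fold stayed inside its exact 95% counting interval, as did the tile shares with shifted tiles. For the folds, which rest on few regions, these intervals are wide, so this does not show that the folds are stable. Both motif matches before Hand2 were lost with the longer motif forms. No paired analysis was possible because each factor has 1 library, and for the same reason no replicate could be left out. Without depth the lists' lengths cannot be set against each other.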

Other observations

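The window ends cut through few groups of regions. At the lower end of the Hand2 window the Nkx2-5 region chr8:59692894-59693004 lay 2.89 kb inside, and another Nkx2-5 region, chr8:59683978-59684082, lay 5.92 kb outside. At the upper end of the Nkx2-5 window the last Tbx3 region ended 3.21 kb inside, and the next region of any list was 199 kb beyond the end. Above Gata6 a Tbx3 region, chr18:11205174-11205407, lay 15.2 kb outside the window. Below Gata6 the next region of any list was 98.8 kb outside it.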
